A study of Mus musculus with 4 samples.

Results

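The Foxp3-positive T cells described here are 76 of the 31885 cell barcodes in 4 droplet single-cell RNA libraries from mouse Peyer's patches. They were chosen by their counts. A barcode had to be absent from the authors' table of 22569 cells, which are B cells and plasma cells, and to have less than 10% of its gene UMIs (unique molecular identifiers, 1 per captured RNA molecule) from mitochondrial genes. It had to carry at most 1 UMI of the B cell genes Cd79a and Ms4a1, at least 1 UMI of the CD3 genes Cd3d, Cd3e and Cd3g, none of Cd8a or Cd8b1, and at least 1 UMI of Foxp3. The same limits with Foxp3 at 0 gave 1875 Foxp3-zero T cells, which serve as the comparison. They were not split by T cell type, and a count of 0 can also be a Foxp3 transcript that was not captured. Every difference below is therefore relative to this mix.

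The libraries hold CD45+ immune cells sorted from the small-intestinal Peyer's patches of female wild-type Taconic mice, either free of segmented filamentous bacteria (SFB-negative) or colonised by them (SFB-positive). Each condition had 2 libraries, replicate 1 and replicate 2, and each condition's tissue was pooled from 5 mice. The age of the mice is not given in the sources used here, and neither is whether the 2 libraries of a condition came from separate pools. The spread between libraries behind the p-values may therefore be technical. The cells were captured with the 10x Genomics 3′ v3.1 chemistry, with about 6000 cells loaded and 4000 targeted per library.

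Regulatory T cells are CD4 T cells that restrain other immune cells, and the X-linked transcription factor Foxp3 defines them. They take up interleukin 2 through its high-affinity receptor, remove costimulatory ligands through Ctla4, and release interleukin 10 and active TGF-beta. In the intestine they include cells of thymic origin, often marked by Helios (the product of Ikzf2) and GATA3, and cells induced locally by microbes, often marked by c-Maf. Some enter B cell follicles as follicular regulatory cells. SFB, which attach to the ileal epithelium, are known for inducing type 17 helper T cells.

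The libraries differed greatly in depth, and the Foxp3-positive cells were spread unevenly over them. The replicate 1 libraries held 7198366 (SFB-negative) and 6979187 (SFB-positive) gene UMIs, and the replicate 2 libraries 47273320 and 83600989. SFB-negative replicate 1 gave 2 Foxp3-positive cells, SFB-negative replicate 2 gave 25, SFB-positive replicate 1 gave 1 and SFB-positive replicate 2 gave 48. Their median depth was 3268 gene UMIs in SFB-negative replicate 2 (range 1596 to 14633) and 6882.5 in SFB-positive replicate 2 (range 3299 to 33170), against 3381 and 6320 in the Foxp3-zero T cells of the same libraries. The 2 cells of SFB-negative replicate 1 had 1582 and 2213 UMIs, and the cell of SFB-positive replicate 1 had 663. Nearly all that follows therefore rests on the 73 cells of replicate 2. The SFB-negative and SFB-positive libraries shared 30 barcodes in replicate 1 and 40 in replicate 2, 1 of them a Foxp3-positive cell, and no doublet caller was run.

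Foxp3 itself, on the X chromosome (GRCm38 chrX:7573644-7595245), chose the cells and is given as a description. Of the 109 barcodes with a Foxp3 UMI in the 4 libraries, 76 passed every limit, 7 were in the authors' table, 6 had 10% or more mitochondrial UMIs, 10 had more than 1 B cell UMI, 3 had no CD3 UMI and 7 had a Cd8a or Cd8b1 UMI. The lowest, median and highest count per cell were 1, 1 and 4 Foxp3 UMIs in the replicate 2 library of the SFB-negative mice and 1, 3 and 9 in that of the SFB-positive mice. Exactly 1 Foxp3 UMI was seen in 15 of 25 and 16 of 48 cells, so many cells sat at the threshold. Among the B cells of the authors' table, which should lack the gene, 0 of 4050, 3 of 7731, 0 of 3408 and 4 of 7380 cells had a Foxp3 UMI in SFB-negative replicates 1 and 2 and SFB-positive replicates 1 and 2. Their median depths were 1267, 3252, 1280 and 5863.5 UMIs. The highest of these shares was 0.0542%, far under the share of T cells with a Foxp3 UMI in the deeper libraries.

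The label was checked against Ctla4, Ikzf2, Tnfrsf4 and Il10. In SFB-negative replicate 2, 2 of 25 cells had UMIs of all 4 genes, 16 of 3, 5 of 2 and 2 of 1, with none at 0. In SFB-positive replicate 2 the corresponding counts were 10, 22, 12 and 3 of 48, and 1 cell had none. Foxp3-zero cells also held 3 of these genes often. In SFB-negative and SFB-positive replicate 2, Ctla4 was in 28.1% and 57.3% of them, Ikzf2 in 31.0% and 35.6%, and Tnfrsf4 in 22.2% and 31.4%. Il10 was in 1.12% and 1.96%. The joint count was not made for the Foxp3-zero cells. The T cell receptor alpha constant gene Trac was seen in 19 of 25 and 41 of 48 cells, and Cd4 in 8 of 25 and 29 of 48. The 11 CD8 and cytotoxic markers summed to 70.6 and 217 CPM in the Foxp3-positive cells of SFB-negative and SFB-positive replicate 2, against 229 and 129 CPM in the Foxp3-zero cells. Of these, the protease gene Gzma was called higher in replicate 2, with 69 UMIs from 3 cells of the SFB-positive library. Of the 11 myeloid markers, 10 were at 0 in both replicate 2 libraries. The summed level of 18 B cell markers in the Foxp3-positive cells, in UMIs per 1000000 gene UMIs of the cells summed (CPM), was 767 (SFB-negative) and 950 (SFB-positive) in replicate 2, against 1226 and 756 in the Foxp3-zero T cells. The gate set part of both sums in both classes. It capped Cd79a and Ms4a1, which are among the B cell markers, and held Cd8a and Cd8b1, among the CD8 markers, at 0.

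The share of Foxp3-positive cells among the gated T cells did not separate SFB-positive from SFB-negative mice. With every cell at its own depth, 2 of 151 gated T cells (1.32%, 95% exact Clopper-Pearson interval 0.161 to 4.70) carried Foxp3 in SFB-negative replicate 1 and 25 of 738 (3.39%, 2.20 to 4.96) in replicate 2. In the SFB-positive libraries the counts were 1 of 199 (0.503%, 0.0127 to 2.77) in replicate 1 and 48 of 863 (5.56%, 4.13 to 7.31) in replicate 2. The highest and the lowest share were both SFB-positive, and the deeper replicate exceeded the shallower one in each condition.

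Because a deeper cell is more likely to show a rare transcript, each gated cell was thinned to 1000 UMIs and shallower cells were left out (10, 22, 22 and 3 cells in SFB-negative replicates 1 and 2 and SFB-positive replicates 1 and 2). The share was then 2 of 141 (1.42%) and 10 of 716 (1.40%) in SFB-negative replicates 1 and 2. It was 0 of 177, with an exact upper limit of 2.06%, and 24 of 860 (2.79%) in SFB-positive replicates 1 and 2. The means were 1.41% ± 0.0154 (SD, n = 2) in SFB-negative and 1.40% ± 1.97 (SD, n = 2) in SFB-positive libraries, a difference of -0.0122 percentage points (two-sided exact permutation test over libraries, p = 1; the smallest p this design allows is 0.333). Within replicate 1 the difference was -1.42 points and within replicate 2 it was 1.39 points. These counts come from 1 random draw of UMIs per cell. The share expected over all such draws, added after seeing the data, was 0.769% and 1.42% in SFB-negative and 0% and 1.89% in SFB-positive replicates 1 and 2, which makes the difference within replicate 2 only 0.475 points. Without thinning the mean difference took the other sign, at 0.676 points (exact permutation p = 1). All intervals cover counting error only.

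Counted over the RNA of all gated T cells, Foxp3 stood at 8.57 (exact Poisson 95% interval 1.04 to 30.9) and 15.4 (11.01 to 21.0) CPM in SFB-negative replicates 1 and 2. In SFB-positive replicates 1 and 2 the level was 6.71 (0.813 to 24.3) and 24.2 (20.4 to 28.5). The SFB-positive value was lower in replicate 1, with intervals that overlap, and higher in replicate 2, with intervals that overlap narrowly.

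**Figure D1:**
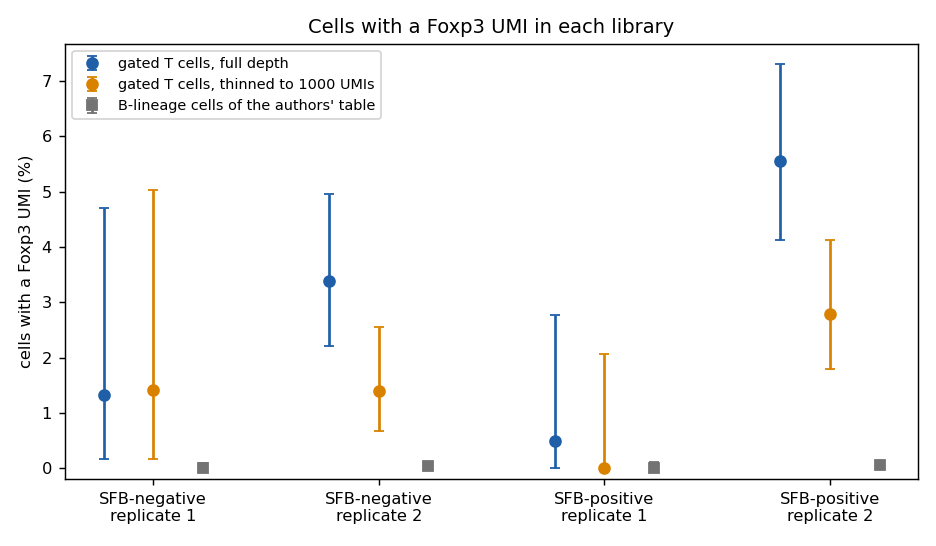
Percent of gated T cells (CD3 UMI present, no Cd8a or Cd8b1 UMI) with a Foxp3 UMI in each of the 4 libraries, at full depth and after thinning every cell to 1000 UMIs, with the table's B cells as grey squares; points are libraries and bars are 95% exact binomial intervals. Thinning brings the replicate 2 values from 3.39% and 5.56% down to 1.40% and 2.79%, and the thinned intervals of all 4 libraries overlap.

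To ask which genes set Foxp3-positive cells apart from the other T cells of the same libraries, UMIs were summed per library over each class, giving 8 sums. These were compared with edgeR's quasi-likelihood test with the library as a block, and p-values were adjusted by Benjamini-Hochberg over all genes tested. Of 3786 genes tested, 105 (2.77%) were higher and 103 (2.72%) lower in Foxp3-positive cells at an adjusted p under 0.05, 208 in either direction (5.49%), and the median log2 difference over all genes was -0.13. The 2 replicate 2 libraries alone, a fit added after seeing the data because they hold most of the cells, gave 302 of 8855 genes higher (3.41%) and 290 lower (3.27%), 592 in all (6.69%). Of the genes higher in the 4-library fit, 91 were also higher in the replicate 2 fit (86.7% of the former and 30.1% of the latter). For the lower genes the overlap was 86 (83.5% and 29.7%). In both fits edgeR took the spread from all genes together. For most genes the p therefore does not measure that gene's own spread between libraries, nor its spread between cells.

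The number of calls depended on depth and scaling. DESeq2's size factors in edgeR gave 163 higher and 307 lower, and without SFB-positive replicate 2 no gene was called (134 genes at an unadjusted p under 0.05). With cells thinned to 1000 UMIs, which left SFB-positive replicate 1 without a Foxp3-positive cell, 13 genes passed in the higher direction and 2 in the lower, over 1502 genes tested.

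Of 18 genes listed as part of regulatory T cell identity, 10 could be tested in the 4-library fit, of which 6 were higher and 0 lower, with a median log2 difference of 1.59. In the replicate 2 fit 17 could be tested, 15 were higher and 0 lower, with a median of 2.17 against -0.06 over all genes. The share higher over all genes was 2.77% in the 4-library fit and 3.41% in the replicate 2 fit. The 2 that missed the threshold there were the folate receptor family gene Izumo1r (log2 difference 0.60, SE 0.21, edgeR adjusted p = 0.0617) and the inhibitory receptor gene Cd5 (0.13, SE 0.22, adjusted p = 0.915).

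Ctla4 (chr1:60887000-60915832) encodes the receptor that strips costimulatory ligands from antigen-presenting cells. It stood at 1120 CPM in SFB-negative replicate 2 (111 UMIs in 21 of 25 cells) and 2328 CPM in SFB-positive replicate 2 (912 UMIs in 45 of 48 cells), against 244 and 702 CPM in the Foxp3-zero cells. The 2 cells of SFB-negative replicate 1 held 4 Ctla4 UMIs and the cell of SFB-positive replicate 1 held none, where the Foxp3-zero cells were at 100 and 508 CPM. The Foxp3-positive level was thus the higher in 3 of 4 libraries. The log2 difference was 1.82 (SE 0.12, edgeR adjusted p = 9.73e-50) in replicate 2 and 1.43 (SE 0.65, edgeR adjusted p = 0.242) over 4 libraries. Thinned to 2000 UMIs, 16 of 24 and 42 of 48 Foxp3-positive cells still showed a Ctla4 UMI, against 134 of 594 and 338 of 803 Foxp3-zero cells.

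Ikzf2 (chr1:69531214-69687245), the gene of the transcription factor Helios, was at 1581, 2099, 6033 and 2241 CPM in the Foxp3-positive cells of SFB-negative replicates 1 and 2 and SFB-positive replicates 1 and 2. The Foxp3-zero cells were at 253, 601, 141 and 585 CPM in the same order. All 4 Foxp3-positive values lay above all 4 Foxp3-zero values. The log2 difference was 1.77 (SE 0.11, edgeR adjusted p = 1.04e-59) in replicate 2 and 1.78 (SE 0.69, edgeR adjusted p = 0.124) over 4 libraries. An Ikzf2 UMI was found in 19 of 25 (76.0%) and 35 of 48 (72.9%) cells of replicate 2. In the Foxp3-zero T cells of the same libraries it was found in 221 of 713 (31.0%) and 290 of 815 (35.6%). The table's B cells at similar depth were at 0.737% and 0.745%.

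Tnfrsf4 (chr4:156013843-156016612) encodes OX40, a costimulatory receptor of the tumour necrosis factor family. Its level was 2635, 1201, 0 and 988 CPM in the Foxp3-positive cells and 261, 204, 451 and 209 CPM in the Foxp3-zero cells, in the library order above. The 0 comes from the shallow cell of SFB-positive replicate 1, and the other 3 libraries had the Foxp3-positive cells higher. It was called in both fits (log2 difference 1.89, SE 0.45, edgeR adjusted p = 0.00102 over 4 libraries; 2.28, SE 0.15 in replicate 2).

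Other receptors of the same family moved with it. Tnfrsf9, which encodes 4-1BB, had the largest log2 difference among the called genes that were higher in all 4 libraries, with 1845, 979, 1508 and 756 CPM against 91.4, 138, 74.0 and 78.7 CPM (2.89, SE 0.32, edgeR adjusted p = 2.04e-16). Tnfrsf18, which encodes GITR, was at 1581, 454, 1508 and 398 CPM against 270, 140, 202 and 106 CPM (1.58, SE 0.29, edgeR adjusted p = 6.32e-06). Tnfrsf1b, which encodes TNF receptor 2, was also called (1.22, SE 0.29, edgeR adjusted p = 0.00123). Tnfrsf18 neighbours Tnfrsf4 on chromosome 4. A level of 1508 CPM in SFB-positive replicate 1, here and below, is 1 UMI in its only Foxp3-positive cell, of 663 UMIs.

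Of the 3 interleukin 2 receptor chains, Il2ra and Il2rb were higher. The common gamma chain gene Il2rg was at 222 and 181 CPM against 162 and 166 CPM in replicate 2 and was not called (0.15, SE 0.24, edgeR adjusted p = 0.90). Il2ra, the gene of the high-affinity chain CD25, was too rare for the 4-library fit. In replicate 2 it was at 151 and 202 CPM (SFB-negative and SFB-positive) against 11.6 and 17.3 CPM, a log2 difference of 3.5 (SE 0.37, edgeR adjusted p = 1.67e-18). Il2rb, the shared beta chain, was called over 4 libraries (1.55, SE 0.29, edgeR adjusted p = 1.33e-05). Of 9 tested genes of interleukin 2 and STAT5 signalling only the STAT5-induced feedback gene Cish was called over 4 libraries (2.59, SE 0.27, edgeR adjusted p = 3.47e-19), and in replicate 2 Cish, Socs2 and Pim1 of 11. Over all genes 2.77% and 3.41% were higher in these fits.

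Rarer identity genes could be read only in replicate 2. Lrrc32, which encodes GARP, the surface anchor of latent TGF-beta, stood at 101 and 135 CPM against 8.41 and 4.11 CPM (log2 difference 4.37, SE 0.46, edgeR adjusted p = 4.68e-19). Ikzf4, which encodes the Foxp3 partner Eos, was at 20.2 and 68.9 CPM against 13.2 and 10.0 CPM (2.17, SE 0.54, edgeR adjusted p = 0.00151). Capg, an actin-capping gene, was called in both fits (2.49, SE 0.30 over 4 libraries), as was Nt5e, which encodes the adenosine-producing ectoenzyme CD73 (1.6, SE 0.29, edgeR adjusted p = 4.16e-06).

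**Figure D2:**
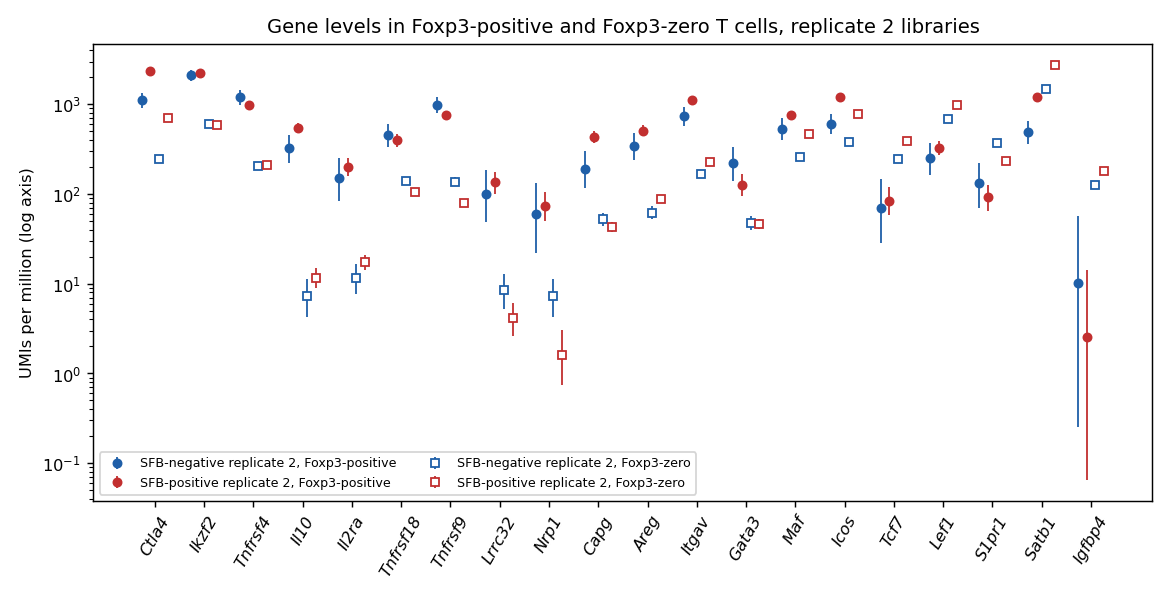
Level of the marker and identity genes in CPM (log axis) in Foxp3-positive (filled) and Foxp3-zero (open) T cells of the replicate 2 libraries, 1 point per library, with exact Poisson 95% intervals. The Foxp3-positive points of Ctla4, Ikzf2, Tnfrsf4 and Il10 lie above the Foxp3-zero points of the same library, as at 1120 against 244 for Ctla4 in SFB-negative replicate 2.

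Of 12 genes listed for suppressive effector functions, 5 were tested over 4 libraries, with 3 higher and 0 lower, and 11 in replicate 2, with 8 higher and 0 lower (median log2 difference 1.68). Over all genes, 2.77% were higher in the 4-library fit and 3.41% in the replicate 2 fit. Areg, which encodes the tissue-repair growth factor amphiregulin, was at 1054, 343, 1508 and 508 CPM against 30.5, 62.1, 202 and 87.4 CPM in the Foxp3-zero cells (2.34, SE 0.29, edgeR adjusted p = 2.52e-13). It was higher in all 4 libraries, in SFB-positive replicate 1 by 1 UMI of its only cell. The inhibitory receptor gene Lag3 (1.42, SE 0.32, edgeR adjusted p = 0.000559) and the PD-L1 gene Cd274 (1.07, SE 0.28, edgeR adjusted p = 0.00338) were called as well, although neither had a UMI in the 3 cells of replicate 1.

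Il10 (chr1:131019845-131024974) encodes the anti-inflammatory cytokine interleukin 10. It was at 323 CPM (SFB-negative) and 544 CPM (SFB-positive) in replicate 2, against 7.21 and 11.6 CPM in Foxp3-zero cells (log2 difference 5.43, SE 0.29, edgeR adjusted p = 2.41e-72 in replicate 2). It was too rare for the 4-library fit, and none of the 3 cells in replicate 1 had a UMI. The transcript came from a minority of cells: 6 of 25 (24.0%) and 14 of 48 (29.2%) had a UMI, against 1.12% and 1.96% of Foxp3-zero cells and 0.479% and 0.691% of the table's B cells. Of the 32 UMIs in SFB-negative replicate 2, 26 were in 1 cell, and of the 213 in SFB-positive replicate 2, 50 were in 1 cell. Without those cells the levels were 62.2 and 424 CPM, still above the Foxp3-zero cells.

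Other suppressive genes were read in replicate 2 only. Entpd1, which encodes CD39, was at 30.3 and 40.8 CPM against 4.01 and 2.15 CPM (log2 difference 3.67, SE 0.73, edgeR adjusted p = 2.29e-05). Ebi3, an interleukin 35 subunit gene, was at 10.1 and 15.3 CPM against 2.40 and 0.715 CPM (3.44, SE 0.87, edgeR adjusted p = 0.00214), from 1 and 6 UMIs. Tgfb1 was at 212 and 255 CPM against 113 and 145 CPM (0.76, SE 0.24, edgeR adjusted p = 0.0265). Gzmb, the gene of the cytotoxic protease granzyme B, had 0 UMIs in the SFB-negative and 112 in the SFB-positive library (286 CPM against 24.5 CPM), with 48 of the 112 in 1 of 6 cells.

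The TGF-beta list held genes on both sides. Itgav, the integrin chain that pairs with beta 8 to release active TGF-beta, was at 527, 737, 0 and 1116 CPM against 21.8, 167, 37.0 and 226 CPM (2.12, SE 0.35, edgeR adjusted p = 1.63e-07). Its partner Itgb8 was called in replicate 2 (2.35, SE 0.28, edgeR adjusted p = 2.28e-14), at 161 and 283 CPM against 55.3 and 36.8 CPM. The receptor gene Tgfbr2 was lower (-1.63, SE 0.35, edgeR adjusted p = 0.000189), at 131 and 168 CPM against 357 and 502 CPM in replicate 2. Of 10 genes of that list tested over 4 libraries Itgav and Tgfbr2 were the only 2 called, and of 11 in replicate 2 there were 4 higher (Itgav, Itgb8, Skil, Tgif1) and 1 lower. All genes together gave 2.77% higher and 2.72% lower over 4 libraries, and 3.41% and 3.27% in replicate 2.

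Effector and activation genes rose in part. Of 12 tested over 4 libraries 3 were higher and 1 lower, and of 15 in replicate 2 there were 5 and 1. The shares over all genes were 2.77% and 2.72% over 4 libraries and 3.41% and 3.27% in replicate 2. Cd83, which encodes an activation marker, was higher (1.87, SE 0.32, edgeR adjusted p = 5.19e-07), as was the transcription factor gene Nfil3 (1.35, SE 0.29, edgeR adjusted p = 0.000236). Icos, the gene of a costimulatory receptor shared with follicular helper cells, was at 605 and 1213 CPM against 382 and 774 CPM in replicate 2 (0.56, SE 0.14, edgeR adjusted p = 0.00125) and missed the threshold over 4 libraries (0.26, SE 0.55, edgeR adjusted p = 0.878). The transcription factor gene Myb was lower (-2.07, SE 0.38, edgeR adjusted p = 6.83e-06). Of the 13 and 18 T cell receptor response genes tested, none was called over 4 libraries, and in replicate 2 there were 3 higher, the NF-κB genes Nfkb1, Rel and Nfkbia, and 1 lower.

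Of the 9 genes listed for GATA3 and ST2, both of the 2 tested over 4 libraries were higher, and of 5 tested in replicate 2 there were 4 higher and 1 lower. Over all genes 2.77% were higher over 4 libraries, and 3.41% were higher and 3.27% lower in replicate 2. Gata3, the gene of the type 2 transcription factor, was at 264, 222, 0 and 128 CPM against 148, 48.1, 90.8 and 46.3 CPM (1.44, SE 0.29, edgeR adjusted p = 5.50e-05), with a UMI in 10 of 25 and 24 of 48 cells of replicate 2. Il1rl1, the gene of the interleukin 33 receptor ST2, was at 60.5 and 35.7 CPM against 4.81 and 1.97 CPM in replicate 2 (3.82, SE 0.71, edgeR adjusted p = 3.72e-06), from 3 and 5 cells. The transcription factor gene Bhlhe40 was at 1581, 323, 1508 and 296 CPM against 87.1, 102, 225 and 141 CPM (1.26 over 4 libraries), and the chemokine receptor gene Ccr4 was at 50.5 and 140.4 CPM against 16.03 and 38.6 CPM in replicate 2. The lower gene was the type 2 cytokine gene Il4, with no UMI in any of the 76 cells against 18.8 and 16.5 CPM in the Foxp3-zero cells of replicate 2 (edgeR adjusted p = 0.0184). Klrg1, on the effector list, a gene of terminally differentiated effectors, was at 70.6 and 15.3 CPM against 0.801 and 0.358 CPM (5.71, SE 0.81, edgeR adjusted p = 2.85e-10). All 4 and 5 Klrg1-bearing cells of the 2 libraries also had a Gata3 UMI.

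Type 17 genes did not move as a group. Of the 14 listed genes 5 were tested over 4 libraries, with 0 higher and 1 lower, and 10 in replicate 2, with 3 higher and 2 lower. All genes together gave 2.77% and 2.72% over 4 libraries, and 3.41% and 3.27% in replicate 2. The 3 higher genes in replicate 2 were Maf (535 and 761 CPM against 257 and 465 CPM), Rora (434 and 934 CPM against 146 and 441 CPM) and the lymphotoxin gene Ltb (373 and 419 CPM against 272 and 239 CPM).

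The 2 lower genes were cytokine genes. Il17a was at 0 and 2.55 CPM (0 and 1 UMI) in the Foxp3-positive cells of replicate 2, against 7.61 and 134 CPM (log2 difference -5.76, SE 0.79, edgeR adjusted p = 3.71e-11). Il22 was at 0 and 74.0 CPM against 107 and 258 CPM, and was the listed gene called over 4 libraries (-2.24, SE 0.41, edgeR adjusted p = 5.67e-06). All 29 Il22 UMIs came from 1 cell of SFB-positive replicate 2. Il21 and Il17f, also on the list, had no UMI in any of the 76 cells. Il21 was not called in replicate 2 (edgeR adjusted p = 0.0861), and Il17f could not be tested.

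Among type 1 genes, Tbx21, the gene of T-bet, had no UMI in any of the 76 cells, and the Foxp3-zero cells of replicate 2 were at 6.41 and 4.83 CPM. The chemokine gene Ccl5 was lower (-1.64, SE 0.36, edgeR adjusted p = 0.000289), and the interleukin 18 receptor gene Il18r1 was higher (0.95, SE 0.30, edgeR adjusted p = 0.0363). Il18r1 was at 60.5 and 237 CPM against 29.7 and 109 CPM in replicate 2.

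Follicular genes were close to the other T cells. Of 14 tested over 4 libraries, 0 were higher and 1 lower, with a median log2 difference of -0.06. The lower gene was Cd40lg, which encodes the helper ligand CD40L (-1.48, SE 0.37, edgeR adjusted p = 0.00212). In replicate 2, Tox was higher and Cd40lg and Btla were lower, of 15. The shares lower over all genes were 2.72% over 4 libraries and 3.27% in replicate 2, where 3.41% were higher. Bcl6, the follicular lineage factor, was at 90.8 and 143 CPM against 118 and 203 CPM (-0.56, SE 0.27, edgeR adjusted p = 0.288). The follicle-homing receptor gene Cxcr5 was at 40.4 and 40.8 CPM against 39.7 and 53.6 CPM (-0.37, SE 0.44, edgeR adjusted p = 0.848). UMIs of both were found in 1 of 25 and 8 of 48 cells. Cxcr5 is also seen in 38.5% and 71.4% of the table's B cells and its background in the T cells was not tested.

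Genes of resting and recirculating T cells were lower. Of 12 tested over 4 libraries, 0 were higher and 4 lower, with a median log2 difference of -1.35, and of 14 in replicate 2, 0 were higher and 9 lower (median -1.10). Over all genes 2.72% and 3.27% were lower in these fits. Tcf7, which encodes the stem-like factor TCF-1, was at 0, 70.6, 0 and 84.2 CPM against 457, 247, 491 and 391 CPM (-2.33, SE 0.41, edgeR adjusted p = 1.67e-06). Every Foxp3-positive value lay under every Foxp3-zero value. The zeros of replicate 1 come from only 3795 (SFB-negative) and 663 (SFB-positive) UMIs, where few Tcf7 UMIs could be seen at any of these levels. Its partner Lef1 was at 264, 252, 0 and 327 CPM against 496, 695, 464 and 977 CPM (-1.75, SE 0.52, edgeR adjusted p = 0.0188).

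Igfbp4, a gene of naive T cells, had 1 UMI in each replicate 2 library (10.1 and 2.55 CPM) against 126 and 183 CPM in the Foxp3-zero cells (-5.56, SE 0.68, edgeR adjusted p = 2.52e-13). S1pr1, whose product lets lymphocytes leave tissue, was lower as well (-1.57, SE 0.34, edgeR adjusted p = 0.000256). The lymph-node homing gene Ccr7 (494 and 541 CPM against 472 and 638 CPM in replicate 2) missed the threshold in both fits, with edgeR adjusted p = 0.610 in replicate 2.

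**Figure D3:**
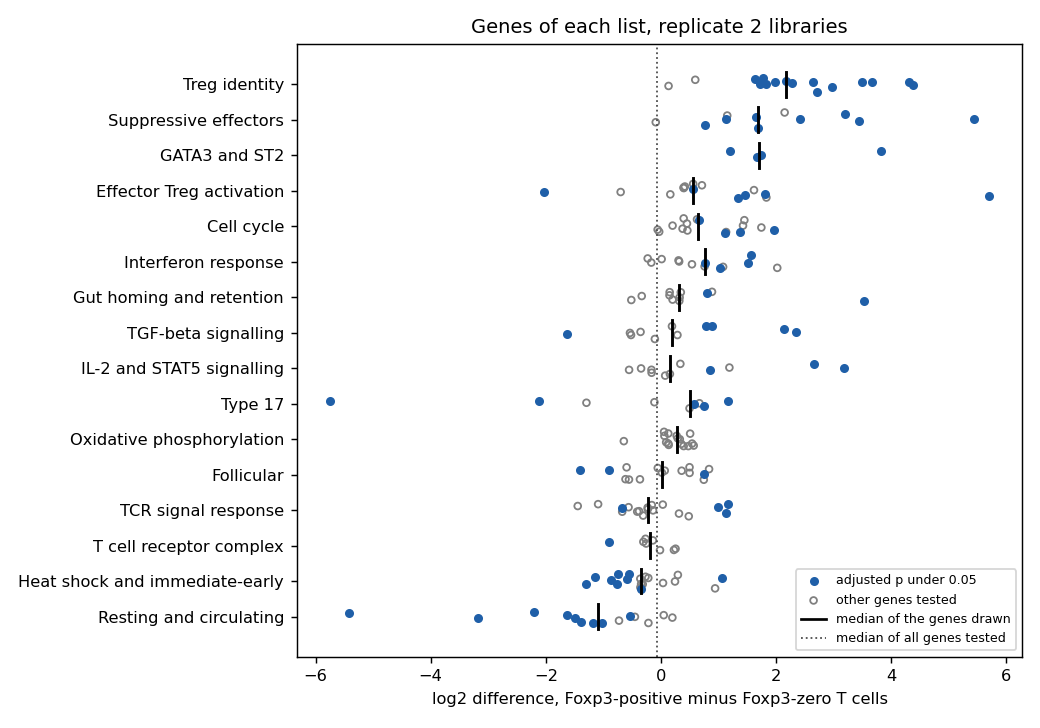
Log2 difference of Foxp3-positive against Foxp3-zero T cells in the replicate 2 libraries (horizontal axis) for each tested gene of the listed groups, 1 point per gene; filled points passed an edgeR adjusted p of 0.05, and genes without a UMI in the Foxp3-positive cells are left out. The identity genes lie to the right, with 15 of 17 called, and the resting genes to the left, with 9 of 14 called.

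Gut-homing and retention genes were called only in replicate 2, where Itga4 and Ccr2 were higher of 11. Itgae, the gene of the epithelial-binding integrin CD103, was on another list and was at 20.2 and 143 CPM against 19.2 and 12.0 CPM (2.64, SE 0.45, edgeR adjusted p = 3.24e-07). In replicate 2, 4 interferon response genes of 13 were higher (Gbp2, Isg20 and Ifi27l2a among them), and 4 cell cycle genes of 16 (H2afz, Mki67, Hmgb2 and Top2a). The share higher over all genes of that fit was 3.41%. Mki67, the proliferation marker, was seen in 1 of 25 and 11 of 48 cells. None of 16 oxidative phosphorylation genes was called in either fit.

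Stress genes went the other way. Of 19 heat shock and immediate-early genes in replicate 2, 1 (Dusp1) was higher and 8 were lower, among them the chaperone genes Hspa1a (141 and 373 CPM against 224 and 842 CPM), Hspa1b and Dnajb1. All genes together gave 3.41% higher and 3.27% lower. Dnajb1 was the gene of that list called over 4 libraries (-1.47, SE 0.39, edgeR adjusted p = 0.00473). Such genes respond to tissue digestion, and their part in the other differences was not tested.

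The class comparison also named genes outside the lists. Higher in all 4 libraries beside those above were Pmaip1 (1.69), which encodes the apoptosis factor Noxa, Cldnd1 (1.42), the prostaglandin E2 receptor gene Ptger4 (1.38), the TNF receptor adaptor gene Traf1 (1.26), S100a10 (1.23) and Snx18 (1.10), all log2 differences of the 4-library fit. Lower in all 4 were 1110034G24Rik (-4.56), the phosphodiesterase gene Pde3b (-3.05), Rasgrp2 (-2.36), the T cell selection gene Themis (-2.28), Rflnb (-2.20), Rgcc (-2.18) and Scml4 (-2.13). Sox4, a transcription factor gene, had no UMI in any Foxp3-positive cell against 218, 42.9, 87.5 and 63.5 CPM. Against a floor of 3 UMIs over all these cells it was at least 10.3-fold lower. Of the 105 higher genes 12 were higher in each of the 4 libraries, and of the 103 lower genes 90 were lower in each, a count that zeros in the 3 cells of replicate 1 favour. In SFB-positive replicate 1, being higher could rest on 1 UMI of its only cell.

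The level of the markers followed the number of Foxp3 UMIs per cell, given as a description because that number set the class. At 0, 1 and 2 or more Foxp3 UMIs, Ctla4 was at 244, 807 and 1449 CPM in SFB-negative replicate 2 and at 702, 1587 and 2632 CPM in SFB-positive replicate 2. Il10 was at 7.21, 78.7 and 580 CPM and at 11.6, 175 and 695 CPM. Tnfrsf9 was at 138, 728 and 1242 CPM and at 78.7, 500 and 861 CPM. All 3 genes rank the same way in both libraries. For Il10 in SFB-negative replicate 2 the top level rests on 1 cell, which held 26 of the 28 UMIs there.

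Other genes did not share that order. Ikzf2 was at 601, 2264 and 1926 CPM and at 585, 2061 and 2315 CPM, so cells with 1 Foxp3 UMI already held the level of cells with more. Tcf7 was at 247, 59.1 and 82.8 CPM and at 391, 184 and 43.2 CPM. Il2ra did not rank alike in the 2 libraries, at 11.6, 236 and 62.1 CPM and at 17.3, 105 and 241 CPM.

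The Foxp3-positive cells were not uniform. In SFB-positive replicate 2, the 14 cells with an Il10 UMI differed from the other 34 in several listed genes, although their median depth was also higher (8084 against 6201 UMIs). Ctla4 was at 4081 against 1620 CPM, Maf at 1215 against 577 CPM and Icos at 1819 against 968 CPM. Itgae was seen in 10 of 14 against 8 of 34 cells. Tcf7 was seen in 0 of 14 against 13 of 34, so no Il10-bearing cell of that library showed a UMI of this resting gene.

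In SFB-negative replicate 2 only 6 cells had Il10. Their summed Ctla4 level followed that order (1534 against 923 CPM), but Maf did not (532 against 536 CPM). Ctla4 was detected about equally, in 5 of 6 against 16 of 19 cells. In that library 1 cell held 30 of the 111 Ctla4 UMIs, and the order without it was not tested. Tcf7 was in 1 of 6 against 4 of 19 cells. Ikzf2 was at 845 against 2696 CPM there, where in SFB-positive replicate 2 it was at 2520 against 2129 CPM. These are values within 1 library each and carry no test.

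Splitting by Ccr7 gave the same direction in both libraries for Lef1, Areg and Maf, but not for every gene. Depth was nearly equal (median 3272 against 3085 UMIs in SFB-negative and 6852 against 6985 in SFB-positive replicate 2). Lef1 was found in 7 of 12 cells with Ccr7 against 2 of 13 without, and in 21 of 24 against 9 of 24. Areg ran opposite, in 1 of 12 against 8 of 13 and in 7 of 24 against 15 of 24 cells. Maf was in 6 of 12 against 11 of 13 and in 13 of 24 against 21 of 24. The resting gene Tcf7 did not order alike, in 2 of 12 against 3 of 13 and in 10 of 24 against 3 of 24 cells. Icos reversed, at 812 against 438 CPM in SFB-negative and 849 against 1658 CPM in SFB-positive replicate 2. Whether these splits mark separate groups of cells was not tested. B cells of the table also hold Ccr7 UMIs, in 67.0% and 80.9% of cells, and their part in this split was not tested.

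**Figure D4:**
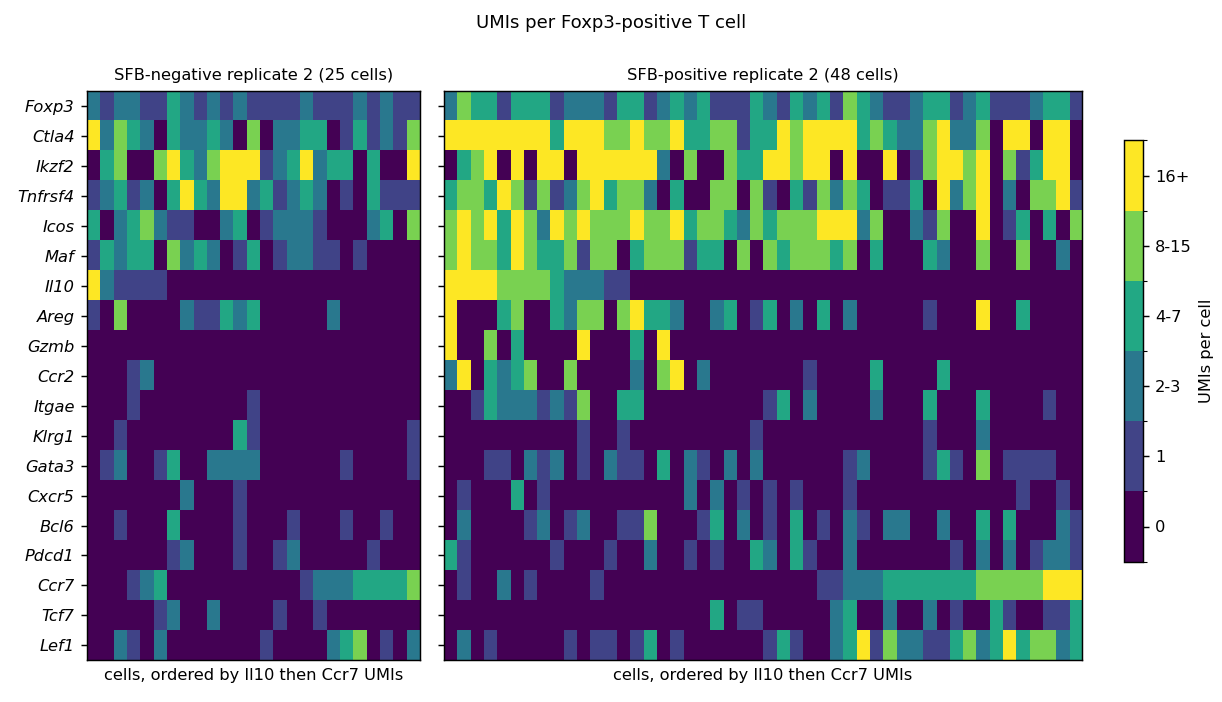
UMIs of selected genes in each of the 73 Foxp3-positive T cells of replicate 2, 1 column per cell and 1 row per gene, with cells ordered by Il10 and then Ccr7 UMIs; shading is the UMI count. The ordering puts the Il10-bearing cells (6 of 25 and 14 of 48) together, and Tcf7 is empty in all 14 of them in SFB-positive replicate 2.

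SFB-positive and SFB-negative Foxp3-positive cells could be compared by size only, in replicate 2, because the replicate 1 libraries held 2 and 1 cells. A gene entered with at least 20 UMIs over both libraries. Of 4198 such genes, 917 (21.8%) were at least 2-fold higher and 195 (4.65%) at least 2-fold lower in SFB-positive replicate 2, with a median log2 ratio of 0.34. Of these, 246 and 93 had exact Poisson 95% intervals that did not overlap, and with no limit on UMIs the balance turned to 1480 higher and 3619 lower. With 1 library a side there is no replicate check, the counts carry no p, and the SFB-positive library was also the deeper one. Regulatory identity genes were 2-fold higher in 5 of 16 and lower in 0, suppressive genes in 3 of 9 and 0, and resting genes in 3 of 11 and 0, beside the 21.8% over all genes.

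Ctla4 went from 1120 CPM (exact Poisson 95% interval 921 to 1349) to 2328 CPM (2179 to 2484), a ratio of 2.08 between these 2 libraries. In the Foxp3-zero cells the ratio was 2.87, from 244 to 702 CPM, and replicate 1 gave 100 and 508 CPM. Icos went from 605 to 1213 CPM, a ratio of 2.0, against 2.03 in Foxp3-zero cells. So both genes were higher in the SFB-positive library in both classes of cell. Ikzf2 (ratio 1.07), Tnfrsf4 (0.823) and Tnfrsf9 (0.772) were under the 2-fold limit.

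Of the gut-homing and retention genes, 6 of 10 were at least 2-fold higher and 0 lower, beside the 21.8% over all genes. Ccr2 of that list went from 40.4 to 243 CPM, and its Foxp3-zero values were 4.81 and 18.2 CPM. Itgae, an identity gene, went from 20.2 CPM (2 UMIs in 2 of 25 cells) to 143 CPM (56 UMIs in 18 of 48 cells), while the Foxp3-zero cells were at 19.2 and 12.0 CPM. After thinning to 2000 UMIs the cells with an Itgae UMI were 1 of 24 and 9 of 48. Gzmb, with 0 and 112 UMIs, was at least 9.44-fold higher against a floor of 3 UMIs, from 6 cells, and went from 4.41 to 24.5 CPM in the Foxp3-zero cells. It had no UMI in the 3 cells of replicate 1, so nothing in that replicate bears on it.

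Fewer listed genes were lower, as over all genes, where 4.65% were at least 2-fold lower and 21.8% higher. Of 8 interferon response genes compared, 2 were at least 2-fold higher (Ifi203 and Gbp2) and 2 lower (Bst2 and Ifi27l2a). The interferon-induced gene Ifi27l2a went from 2543 to 651 CPM, and from 813 to 417 CPM in the Foxp3-zero cells. Its 252 UMIs in SFB-negative replicate 2 came from 22 of 25 cells, with 61 in 1 cell. Nr4a2, an immediate-early nuclear receptor gene, went from 262 to 58.7 CPM, against 176 and 152 CPM in the Foxp3-zero cells, and the Foxp3-positive cells of replicate 1 held 1 and 0 UMIs. Socs1, a feedback inhibitor of cytokine signalling, went from 172 to 35.7 CPM, against 53.3 and 73.3 CPM. Klrg1 and the chemokine receptor gene Ccr8, with 13 UMIs each, did not reach the 20 UMIs needed to enter.

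The largest ratios were named after their values were seen, among genes whose intervals lay apart and whose UMIs did not come mostly from 1 cell. On the lower side stood AY036118 (1211 and 28.1 CPM), the histone gene Hist1h4h (272 and 7.66 CPM), Cdk8 (3401 and 102 CPM), Lars2 (686 and 30.6 CPM), Hist1h4d (817 and 53.6 CPM) and Cmss1 (3320 and 225 CPM). In the Foxp3-zero cells of the same libraries AY036118 was at 1135 and 27.2 CPM and Cdk8 at 4458 and 81.4 CPM. In the Foxp3-zero cells of replicate 1 they were at 8.71 and 0 CPM and at 34.8 and 26.9 CPM, so SFB-negative replicate 2 stood apart from the other 3 libraries. Together AY036118, Cdk8, Lars2 and Cmss1 made up 0.862% and 0.0385% of the UMIs of Foxp3-positive cells in replicate 2, and 0.00653% and 0.00505% of those of Foxp3-zero cells in replicate 1. On the higher side stood Wwp1 (10.1 and 163 CPM), Dnajc5 (10.1 and 143 CPM), Nop58 (10.1 and 143 CPM) and Tnfsf11 (10.1 and 130 CPM), each with 1 UMI in SFB-negative replicate 2.

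Whether the SFB difference in Foxp3-positive cells departs from that in Foxp3-zero cells was tested as an interaction over the 8 sums with edgeR. Of 3786 genes, 1 passed (0.0264%), the RNA-binding protein gene Fmr1, and 189 had an unadjusted p under 0.05. None of Ctla4, Icos, Areg, Maf or Rora passed that test (edgeR adjusted p = 1 for each), with SEs between 1.08 and 2.19 on the log2 scale, which leaves room for large differences. Over the 4 sums of Foxp3-positive cells alone, an edgeR fit with the replicate number as a block tested 875 genes and called 0 higher and 1 lower, Nr4a2 (37 genes at an unadjusted p under 0.05). That fit rests on 3 cells in replicate 1, and without the block it called 4 genes.

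**Figure D5:**
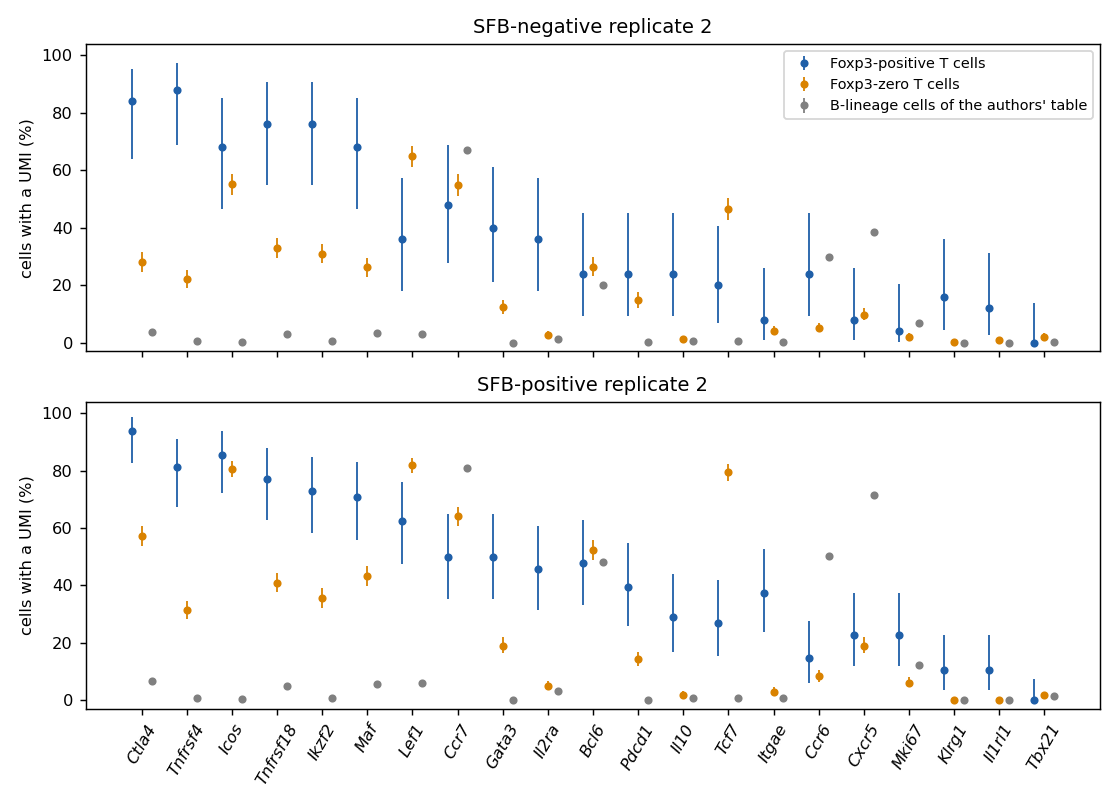
Percent of Foxp3-positive T cells with a UMI of each gene in SFB-negative replicate 2 (25 cells) and SFB-positive replicate 2 (48 cells), with 95% exact binomial intervals, beside the Foxp3-zero T cells and the table's B cells (grey) of the same libraries. Itgae stands at 2 of 25 and 18 of 48 cells, with wide intervals, while Ikzf2 stands at 76.0% and 72.9%.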

How the data were processed

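The deposited matrices hold UMI counts per gene and barcode, made by the authors with Cell Ranger against mm10. The submitters' processing notes name version 5.0.1, while the matrix headers give 6.0.0 for replicate 1 and 7.0.0 for replicate 2, and only replicate 1 carries 15 antibody tags, which were not used. The table of 22569 cells is the authors' own and was used only to leave its cells out and as background, each matched by barcode and a UMI total at most 100 below the matrix's. Members, gene lists and tests were chosen with earlier results of these data known.

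Gates were mitochondrial share under 10%, Cd79a and Ms4a1 UMIs at most 1, CD3 UMIs at least 1, Cd8a and Cd8b1 at 0, and Foxp3 at least 1. Counts were summed per library and class, filtered with filterByExpr and fitted with edgeR 4.0.16 in R 4.3.3 (TMM, robust quasi-likelihood fit, Benjamini-Hochberg over all genes, threshold 0.05). Genes of the gate stayed in library sizes and were not called. DESeq2 1.42.0, other gates, thinning, no filter, and leaving out each library were alternatives. Scripts were tested on simulated counts. Symbol coordinates are from the GENCODE annotation of GRCm38, the assembly of mm10.

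Named genes were the 5 markers, the 10 called genes with the largest difference in each direction that moved alike in all libraries, up to 4 called genes per list, and the main lists' genes; some of these are not reported here. Depth ran from 6979187 to 83600989 gene UMIs per library. SFB was compared by size where a library had under 10 members.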

Additional observations from a re-analysis of the deposited data

Results flagged for a closer look

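Fmr1, the gene of an RNA-binding protein of translation control, was the 1 gene whose SFB difference differed between Foxp3-positive and Foxp3-zero T cells by the interaction term (log2 -2.42, SE 0.50, edgeR adjusted p = 0.00496). The Foxp3-positive cells held 0, 21, 0 and 25 UMIs in SFB-negative replicates 1 and 2 and SFB-positive replicates 1 and 2, which is 212 and 63.8 CPM in replicate 2. The Foxp3-zero cells were at 45.7 and 78.0 CPM there. Of the 21 UMIs in SFB-negative replicate 2, 17 came from 1 cell. The call was lost with the replicate number as a block, with the DESeq2 Wald test and under each of the 3 stricter gates, which leave SFB-positive replicate 1 without a Foxp3-positive cell; 0 genes passed in each.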

How the results depend on the processing

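The SFB difference in the thinned share of Foxp3-positive cells (-0.0122 percentage points) was 0.676 without thinning, -0.147 with the expected share, and -1.41 to 1.38 when each library was left out, with the sign turned without SFB-positive replicate 1. With the replicate number as a block it was also -0.0122. Against 105 genes higher and 103 lower in Foxp3-positive cells, DESeq2's size factors gave 163 and 307, no filter on low counts 186 and 182, the DESeq2 Wald test 43 and 29, cells thinned to 1000 UMIs 13 and 2, the replicate 2 libraries alone (added after seeing the data) 302 and 290, and leaving out each library 0 to 123 and 0 to 65. The lower genes numbered 37 with no B cell UMI, 47 with at least 2 CD3 UMIs, 44 under 5% mitochondrial UMIs and 40 with at least 2 Foxp3 UMIs, where SFB-positive replicate 1 dropped out for want of a cell. Without shared barcodes, also added later, the counts were 99 and 101, and with the replicate block in place of the library block 98 and 96. Both replicate 2 libraries decide the counts: 32 and 27 without SFB-negative, 0 and 0 without SFB-positive.

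The interaction called 1 gene, against 18 with DESeq2's size factors, 28 with no filter, 0 with the DESeq2 Wald test (29 at an unadjusted p under 0.05), 0 under each of the 3 stricter gates, 0 with the replicate block, and 0 to 3 with each library left out. The size rule gave 917 higher and 195 lower. With at least 2 Foxp3 UMIs 601 were higher, with no filter 1480 and 3619, and with at least 50 UMIs 344 and 64. Leaving out a replicate 2 library gives no value there. The edgeR fit of the 4 sums called 1 gene, 4 without the replicate block, 2 with no filter, 0 with DESeq2 and 0 to 8 with each library left out. The causes were not tested.

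Of 59 named genes, 7 changed sign under some setting, 6 of them uncalled. Ltb was at -0.29 with no filter, -0.27 with DESeq2, -0.047 thinned and -0.51 to 0.47 with a library left out (negative without either replicate 2 library). Hif1a was at 0.070 with no B cell UMI, 0.011 with 2 CD3 UMIs, 0.028 with 2 Foxp3 UMIs, 0.015 in replicate 2 and -0.58 to 0.083 with a library left out. Sh2d1a was at -0.0044 with DESeq2's size factors, -0.13 with no filter and -0.032 to 0.14 with a library left out. Rgs10 was at 0.0080 under 5% mitochondrial UMIs, 0.23 thinned, 0.047 in replicate 2 and -0.43 to 0.048 with a library left out. Cd69 was at -0.41 with no filter, -0.45 with DESeq2, -0.013 with 2 CD3 UMIs, -0.61 thinned and -0.70 to 0.21 with a library left out. Selplg was at 0.15 in replicate 2 and -1.64 to 0.049 with a library left out. The called gene was Ighm, at -0.12 to 1.40 with a library left out. Of 600 values for the 42 called genes, 434 kept their call, 164 fell under the threshold and 2 changed sign.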

Other observations

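Several genes outside the lists, chosen after their values were seen, stood out in the replicate 2 libraries. Each was called higher, with at least 4 UMIs in the Foxp3-positive cells of each library and 20 over both. No such demand was made on the Foxp3-zero cells, so a level above 0 in the Foxp3-positive cells of both libraries was fixed by the choice. Gbp2b, an interferon-inducible GTPase gene, had 4 and 22 UMIs in the Foxp3-positive cells (40.4 and 56.2 CPM in SFB-negative and SFB-positive replicate 2) and 0 and 1 UMIs in the 713 and 815 Foxp3-zero cells. Its relative Gbp3 was at 70.6 and 102 CPM against 5.61 and 6.44 CPM (log2 difference 3.78, SE 0.53, edgeR adjusted p = 1.60e-10). The sarcomere gene Neb was at 131 and 309 CPM against 14.4 and 26.3 CPM (3.36, SE 0.32, edgeR adjusted p = 3.20e-23). Atp6v0d2, a proton pump subunit gene, was at 90.8 and 148 CPM against 5.61 and 4.11 CPM (4.67, SE 0.47, edgeR adjusted p = 1.09e-20). Nckap5 (50.5 and 174 CPM against 3.21 and 6.44 CPM) and Myo3b (60.5 and 117 CPM against 6.41 and 4.83 CPM) were higher in the same way. None was abundant enough for the 4-library fit, and none had a UMI in the 3 Foxp3-positive cells of replicate 1.

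Ighm, the gene of the IgM heavy chain, was higher in the Foxp3-positive cells (log2 difference 1.11 over 4 libraries) although they were gated against B cells. It was at 252 and 539 CPM in replicate 2 against 117 and 142 CPM in the Foxp3-zero cells, with UMIs in 13 of 25 and 31 of 48 cells. Other B cell genes did not follow: Igkc was at 90.8 and 153 CPM against 153 and 123 CPM, Ighd at 0 and 5.11 CPM against 19.6 and 5.72 CPM, and Cd74 at 252 and 135 CPM against 511 and 280 CPM. The ratio of Ighm to Igkc UMIs thus differed between the classes, 25 to 9 and 211 to 60 against 293 to 382 and 794 to 687. In replicate 1 the Foxp3-positive cells held 1 and 0 Ighm UMIs.

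All 9 UMIs of the interleukin 2 gene Il2 in SFB-negative replicate 2 came from 1 of 25 Foxp3-positive cells.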
